A study of Mus musculus with 8 samples.

Results

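The 33 genes described here encode the enzymes of cholesterol synthesis, the regulators of that pathway and the enzymes of fatty acid synthesis. They were chosen by name, and all 33 were among the 50600 rows of the deposited RNA-seq table and among the 10222 genes tested. There were 18 in the sterol branch, 7 in regulation and lipid handling and 8 in the fatty acid branch. The cells were JUN TetON ESCs, mouse embryonic stem cells of the OG2 transgenic line (genotype c-Jun_TetOn_mESC, strain 1/2 129SVJ, 3/8 C57B6 and 1/8 CBA) in which doxycycline switches on JUN. All 4 groups received doxycycline (2 μg/ml) for 6 h by the labels, together with DMSO (the solvent), PFI-3 (an inhibitor of the bromodomain of BRG1 and related subunits of the BAF chromatin remodeler), BI-9564 (an inhibitor of the BRD7 and BRD9 bromodomains) or both compounds (P+B). Each group had 2 libraries, and the study's legend gives the JUN induction a longer time than the compounds. Cells without doxycycline were not analysed here, so no value below shows what JUN itself did. Nothing in the labels says that the replicates were separate cultures, so p-values measure only the spread between these libraries, which may be technical.

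Cholesterol is built from acetyl-CoA through mevalonate, farnesyl diphosphate, squalene and lanosterol, and fatty acids are built from the same acetyl-CoA through malonyl-CoA. The SREBP transcription factors drive both branches: SCAP carries SREBP out of the endoplasmic reticulum when sterol is scarce, and the INSIG proteins hold SCAP back when sterol is plentiful. SREBP-2, from *Srebf2*, acts mainly on the sterol genes and SREBP-1, from *Srebf1*, mainly on the fatty acid genes. SREBP binds promoters together with NF-Y, a factor that recognises the CCAAT box.

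Values are TPM that were made whole numbers, a measure per transcript length, so levels can be compared between genes. The sum per library was between 991574 and 991897 and holds no depth, so counting error is unknown. *Jun* stood at 1569 to 3011 in the 8 libraries. The 8 ESC markers checked were all present (*Pou5f1* between 1104 and 1333, *Nanog* between 29 and 106), while the fibroblast markers summed to 0 to 5, the primitive endoderm markers to 2 to 6 and the trophoblast markers to 5 to 18. In bulk RNA, fewer cells of a type and less RNA per cell cannot be told apart.

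A promoter window from RefSeq (GRCm38.p6) was held for 26 of the 33 members, and the 250 bases before each start were searched on both strands for CCAAT (read as ATTGG on the other strand), for the SREBP element TCACNCCAC and for the E-box CACGTG. The CCAAT letters stood before 14 of 15 sterol branch genes, 4 of 6 regulation genes and 1 of 5 fatty acid genes (*Fasn*), against 37.5% of all 27025 genes with a window and 42.0% of the 7782 tested ones. TCACNCCAC in exactly these letters stood before *Hmgcs1* alone (1.22% of all genes), and CACGTG before *Dhcr7*, *Hsd17b7*, *Insig1*, *Sc5d* and *Scap* (6.86% of all genes and 10.55% of tested ones). No window was held for *Fdps*, *Scd2*, *Fdft1*, *Sqle*, *Fads1*, *Scd1* and *Stard4*. A match of letters is a description and shows no binding. Some genes, such as *Dhcr7*, *Insig2* and *Srebf1*, held several windows and so had more stretches to match. The only *Acaca* window (chr11:84195288-84195437) lay inside the gene, which starts at 84129672. The 150 bases before the start held 150 annotated exon bases for *Fads2* and 129 for *Elovl6*. In the sterol branch they held 150 for *Idi1*, *Msmo1* and *Tm7sf2*, and for the *Dhcr7* windows at chr7:143823249-143823398 and chr7:143830064-143830213. Within these 150 bases, CCAAT stood for *Dhcr7* only in the chr7:143830064-143830213 window, which lay inside the gene (start 143823145). The branch counts carry these limits. The 150 bases before the start are printed 5′ to 3′ for 3 enzymes of the mevalonate section, because *Hmgcs1* holds the SREBP element and *Mvk* and *Mvd* hold CCAAT more than 1 time, and for *Fasn*, the fatty acid gene that shares the CCAAT box. Capitals mark the matches.
*Hmgcs1* (GRCm38.p6, chr13:119690201-119690350, strand +): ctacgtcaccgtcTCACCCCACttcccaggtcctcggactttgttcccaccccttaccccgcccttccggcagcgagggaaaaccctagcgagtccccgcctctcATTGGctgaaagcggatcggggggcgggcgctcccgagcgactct
*Mvk* (GRCm38.p6, chr5:114444119-114444268, strand +): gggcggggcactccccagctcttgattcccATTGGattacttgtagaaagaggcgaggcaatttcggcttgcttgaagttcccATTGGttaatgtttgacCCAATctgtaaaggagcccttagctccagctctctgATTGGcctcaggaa
*Mvd* (GRCm38.p6, chr8:122443423-122443572, strand −): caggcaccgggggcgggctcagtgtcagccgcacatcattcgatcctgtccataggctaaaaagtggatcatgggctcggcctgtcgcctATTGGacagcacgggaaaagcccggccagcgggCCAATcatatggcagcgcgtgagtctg
*Fasn* (GRCm38.p6, chr11:120824548-120824697, strand −): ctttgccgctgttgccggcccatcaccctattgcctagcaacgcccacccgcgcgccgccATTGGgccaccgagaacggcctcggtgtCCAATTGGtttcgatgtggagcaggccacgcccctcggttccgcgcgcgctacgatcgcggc
*Mvk* held CCAAT 4 times in this stretch, *Fasn* 3 times with 2 of them overlapping, *Mvd* 2 times and *Hmgcs1* 1 time.

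With both compounds 30 of 33 members had a higher level than with DMSO, and 3 passed the test. *Dhcr7*, the reductase of the last step of cholesterol synthesis, *Cyp51*, the lanosterol demethylase, and *Scap*, the escort of SREBP, rose by factors between 1.58 and 2.01. The test was limma on log2(value + 1), and a call needed an adjusted p below 0.05 together with at least a 1.5-fold change. In this comparison 131 of 10222 tested genes (1.28%) were called higher and 278 (2.72%) lower, 409 (4%) in all, and no member was called lower. The 30 members above DMSO compare with 57.6% of all tested genes, and in 22 of 33 both P+B libraries were above both DMSO libraries, against 28.6%. With 2 libraries against 2 an exact permutation test of a single gene cannot give a p under 0.333, so calls rest on the spread that limma shares across genes. The median log2 difference over the members was 0.29, beside 0.06 over all tested genes. *Jun* differed by -0.37 with P+B (SE 0.26, adjusted p 0.437, and 0.00156 at a fold under 1.5 where the replicate number enters the fit as a block, which compares libraries of the same number), and its part in the members' differences was not tested.

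**Figure D1:**
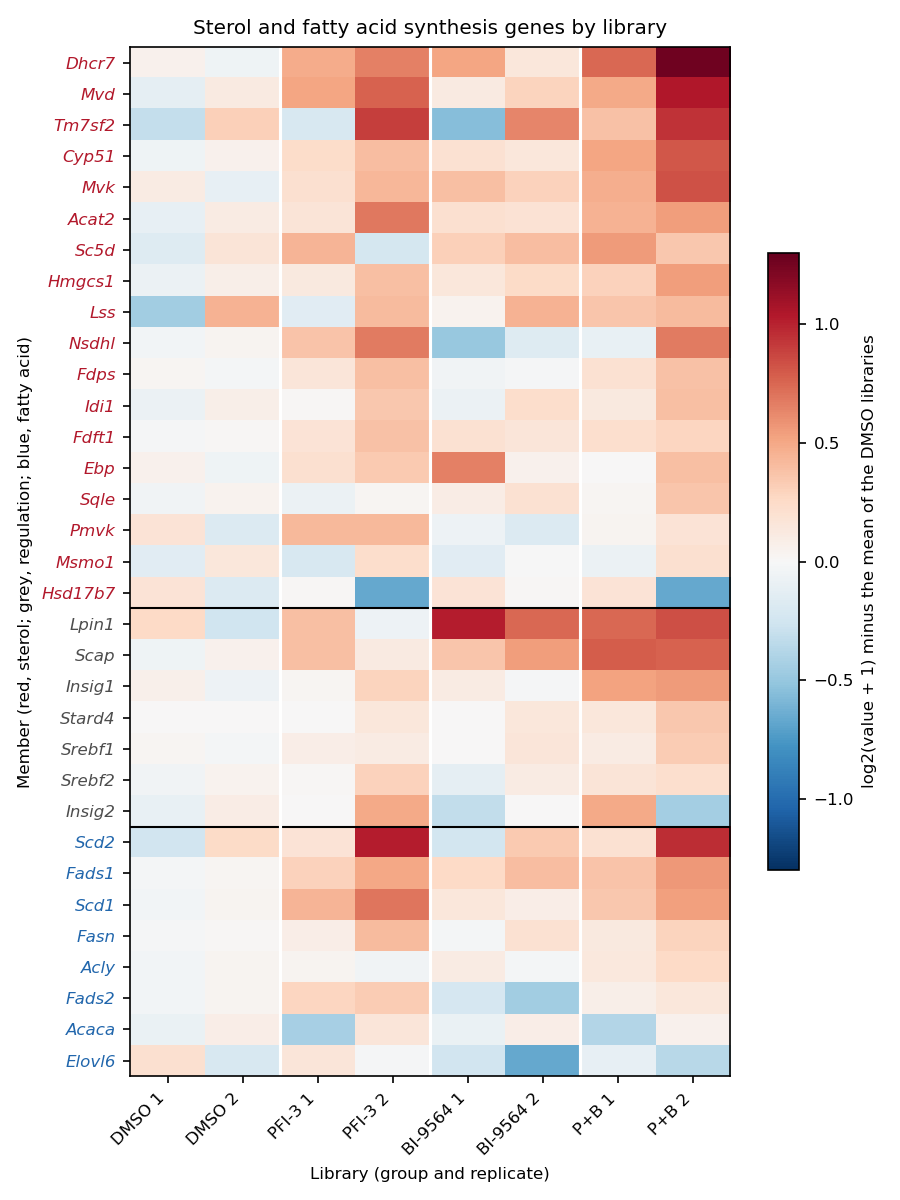
Each cell is log2(value + 1) in 1 library (columns, by group and replicate) minus the mean of the 2 DMSO libraries, for the 33 members (rows) ordered within each branch by the difference with P+B. Red marks values above DMSO, with *Dhcr7* in P+B replicate 2 the highest, and *Hsd17b7* and *Elovl6* sit at the bottom of their branches with blue cells.

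In the mevalonate section, which makes the isoprene unit from acetyl-CoA, *Mvd* (mevalonate diphosphate decarboxylase, chr8:122433601-122443422, GRCm38) stood at 39 and 46 in the DMSO pair, 61 and 73 in the PFI-3 pair, 46 and 52 in the BI-9564 pair, and 60 and 88 in the P+B pair. All 4 libraries that received PFI-3 lay above the 4 that did not. The log2 difference of *Mvd* with P+B was 0.76 (SE 0.19) with an adjusted p of 0.0607, and 0.00704 with the replicate number as a block. *Mvk* (mevalonate kinase, chr5:114444269-114460591) was 27 and 23 in the DMSO pair, 29 and 34 in the PFI-3 pair, 33 and 31 in the BI-9564 pair, and 35 and 45 in the P+B pair. Its P+B libraries were the highest pair, 0.65 (SE 0.17) above DMSO on the log2 scale, with an adjusted p of 0.0646 and of 0.0424 with the block. With the block 5 members were therefore called higher and 0 lower, among 299 of 10222 genes (2.93%) called higher and 419 (4.1%) lower, 718 (7.02%) in all.

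*Hmgcs1*, which condenses acetyl units into the precursor of mevalonate, was 81 and 90 in the DMSO pair and 105 and 125 in the P+B pair, a log2 difference of 0.42 (SE 0.13, adjusted p 0.108). The groups did not overlap, but the difference lay under the fold of 1.5. *Acat2*, which joins the first acetyl units, was 57 and 66 in the DMSO pair and 84 and 90 in the P+B pair. *Pmvk*, the kinase between *Mvk* and *Mvd*, had its highest pair with PFI-3 alone, at 37 and 37, beside 31 and 24 in the DMSO pair and 28 and 31 in the P+B pair.

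In the sections that build farnesyl diphosphate, squalene and lanosterol no member passed the test. *Fdps*, the farnesyl diphosphate synthase and the most abundant sterol gene, was 147 and 141 in the DMSO pair, 161 and 189 in the PFI-3 pair, 139 and 142 in the BI-9564 pair, and 165 and 188 in the P+B pair. Both groups with PFI-3 were above both groups without it, and the log2 difference with P+B was 0.29 (SE 0.11, adjusted p 0.158). *Idi1*, *Fdft1*, *Sqle* and *Lss*, the isomerase, squalene synthase, squalene epoxidase and lanosterol synthase, differed from DMSO by 0.26, 0.25, 0.19 and 0.39 on the log2 scale with P+B, and none passed the test.

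After lanosterol, *Cyp51* (chr5:4081145-4104746) stood at 26 and 28 in the DMSO pair, 32 and 36 in the PFI-3 pair, 31 and 30 in the BI-9564 pair, and 39 and 48 in the P+B pair. Every treated library was above the DMSO pair and the P+B pair was highest. *Cyp51* rose by 0.66 on the log2 scale with P+B (SE 0.14, adjusted p 0.0417). *Dhcr7* (chr7:143823145-143848410) stood at 28 and 26 in the DMSO pair, 38 and 43 in the PFI-3 pair, 39 and 30 in the BI-9564 pair, and 46 and 66 in the P+B pair. The 4 groups followed that same pattern, with P+B replicate 2 above all others. *Dhcr7* rose by 1.00 (SE 0.20, adjusted p 0.0286), the largest difference of any member.

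Between them, *Tm7sf2*, a sterol reductase, was 12 and 19 in the DMSO pair, 13 and 29 in the PFI-3 pair, 10 and 24 in the BI-9564 pair, and 20 and 30 in the P+B pair, with replicate 2 the higher in every pair. Its log2 difference with P+B was 0.66 (SE 0.47, adjusted p 0.446). *Hsd17b7*, a keto reductase of the demethylation steps and the least abundant member, was 8 and 6 in the DMSO pair, 7 and 4 in the PFI-3 pair, 8 and 7 in the BI-9564 pair, and 8 and 4 in the P+B pair. It was the only sterol branch gene below DMSO with P+B, by a log2 difference of -0.24 (SE 0.38, adjusted p 0.749). *Msmo1* and *Nsdhl* act in removing methyl groups, *Ebp* shifts a double bond and *Sc5d* introduces one. With P+B these genes differed by 0.06, 0.29, 0.19 and 0.46 in that order, and none passed the test.

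**Figure D2:**
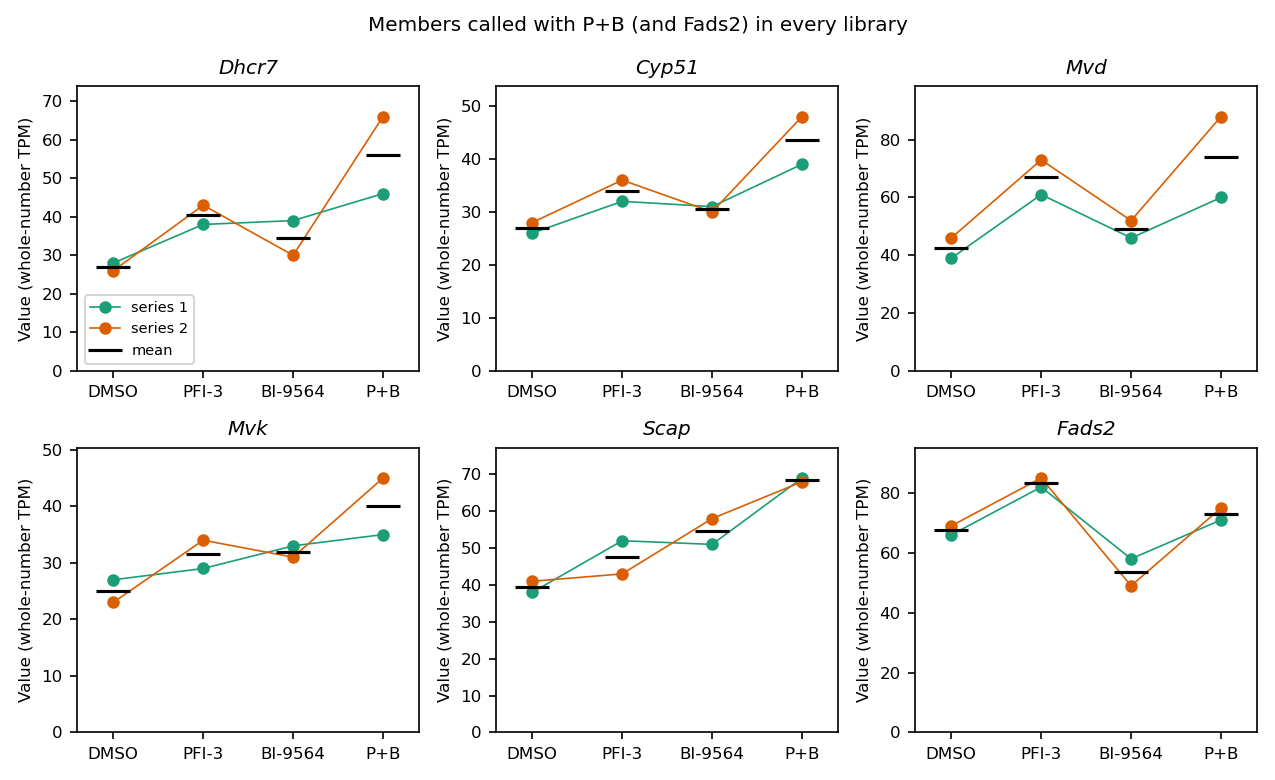
Values (whole-number TPM, vertical axis from 0) of *Dhcr7*, *Cyp51*, *Mvd*, *Mvk*, *Scap* and *Fads2* in the 4 groups. Points are single libraries, lines join libraries with the same replicate number, and bars are the means of 2. P+B has the highest mean in the first 5 genes, and BI-9564 the lowest in *Fads2*.

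Among the regulators, *Scap* (chr9:110333288-110384950) stood at 38 and 41 in the DMSO pair, 52 and 43 in the PFI-3 pair, 51 and 58 in the BI-9564 pair, and 69 and 68 in the P+B pair. Here both single compounds were above DMSO and the P+B libraries nearly coincided. *Scap* rose by 0.78 on the log2 scale (SE 0.13, adjusted p 0.0166), the smallest adjusted p of any member. *Insig1*, a brake on SCAP, was 34 and 31 in the DMSO pair, 33 and 40 in the PFI-3 pair, 35 and 32 in the BI-9564 pair, and 47 and 48 in the P+B pair. Only the P+B pair of *Insig1* stood clear of the other 6 libraries, with a log2 difference of 0.54 (SE 0.14, adjusted p 0.0646). *Insig2*, its paralog, was 13 and 15 in the DMSO pair and 20 and 10 in the P+B pair, with overlapping groups (0.02, SE 0.32).

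*Srebf2* was 84 and 90 in the DMSO pair and 98 and 101 in the P+B pair, and *Srebf1* 51 and 49 beside 54 and 63. Both genes of the SREBPs themselves thus differed by 0.19 and 0.22 on the log2 scale, without passing the test. *Lpin1*, a phosphatidate phosphatase of glycerolipid synthesis, was 9 and 6 in the DMSO pair, 10 and 7 in the PFI-3 pair, 16 and 13 in the BI-9564 pair, and 13 and 14 in the P+B pair. Its 4 libraries with BI-9564 lay above the 4 without, and the log2 difference was 0.88 (SE 0.26, adjusted p 0.195) with BI-9564 alone and 0.79 (SE 0.26, adjusted p 0.126) with P+B. *Stard4*, a carrier of sterol between membranes, ranged from 17 to 22.

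No gene of the fatty acid branch passed the test with P+B, with or without the block. *Fasn*, the fatty acid synthase and the most abundant member, was 244 and 248 in the DMSO pair, 261 and 327 in the PFI-3 pair, 241 and 282 in the BI-9564 pair, and 269 and 301 in the P+B pair. *Acly*, which supplies cytosolic acetyl-CoA to both branches, was 207 and 217 in the DMSO pair and 233 and 253 in the P+B pair. The differences of *Fasn* and *Acly* with P+B were 0.21 (SE 0.13) and 0.20 (SE 0.09) on the log2 scale. *Acaca*, which makes malonyl-CoA, was 37 and 42 in the DMSO pair, 29 and 44 in the PFI-3 pair, 37 and 42 in the BI-9564 pair, and 30 and 41 in the P+B pair. Its groups overlapped throughout, and the difference with P+B was -0.16 (SE 0.22).

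Among the desaturases, *Scd1*, a stearoyl-CoA desaturase, was 22 and 23 in the DMSO pair, 31 and 37 in the PFI-3 pair, 25 and 24 in the BI-9564 pair, and 29 and 33 in the P+B pair. *Scd2*, its more abundant paralog, was 95 and 135, 128 and 231, 96 and 144, and 130 and 221 in the same order. Both were higher in the libraries with PFI-3 than in those without it of the same replicate number, and with P+B the log2 differences were 0.44 (SE 0.15, adjusted p 0.122) and 0.58 (SE 0.35, adjusted p 0.368). With the block the adjusted p of *Scd2* was 0.0103, at a fold just under 1.5. *Insig1*, *Acat2*, *Fads1* and *Hmgcs1* likewise had a block adjusted p under 0.05 without reaching that fold, which makes 5 such members.

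*Fads1*, a desaturase of polyunsaturated chains, was 31 and 32 in the DMSO pair, 39 and 45 in the PFI-3 pair, 38 and 42 in the BI-9564 pair, and 41 and 47 in the P+B pair. All 6 treated libraries were above the DMSO pair, and the difference with P+B was 0.47 (SE 0.13, adjusted p 0.0882). *Fads2*, which acts before *Fads1*, was 66 and 69 in the DMSO pair, 82 and 85 in the PFI-3 pair, 58 and 49 in the BI-9564 pair, and 71 and 75 in the P+B pair. The single compounds therefore stood on opposite sides of DMSO, with P+B between them. *Elovl6*, the elongase of saturated chains, was 54 and 40 in the DMSO pair, 52 and 46 in the PFI-3 pair, 39 and 29 in the BI-9564 pair, and 43 and 36 in the P+B pair, a difference of -0.24 (SE 0.20) with P+B.

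**Figure D3:**
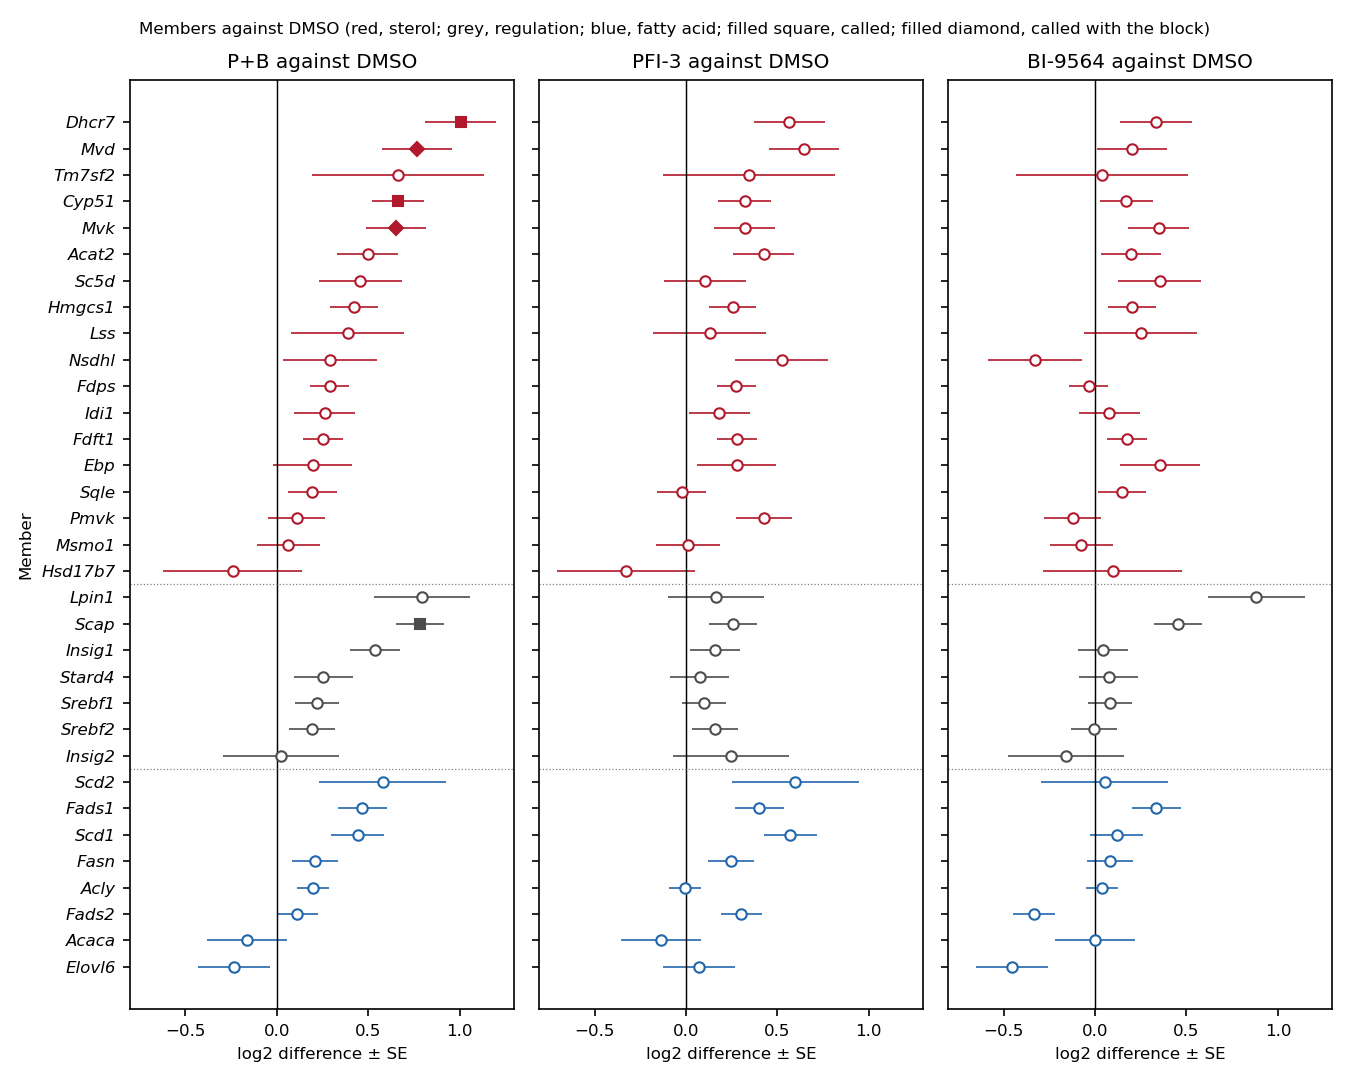
Log2 differences on the log2(value + 1) scale (horizontal axis, points with SE bars) of the 33 members for each treatment against the same 2 DMSO libraries. Filled squares (*Dhcr7*, *Cyp51*, *Scap*) passed the test, filled diamonds (*Mvd*, *Mvk*) passed it only with the replicate block, and open circles did not pass. All filled points are in the P+B panel.

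With PFI-3 alone no gene at all was called by limma (0 of 10222, 0%), with or without the block, so 0 of 33 members were. At an unadjusted p under 0.05 there were 9 of 33 members, against 6.79% of tested genes. That count of 9 was 2 without DMSO replicate 1, 4 without DMSO replicate 2 and 2 without PFI-3 replicate 2. Of the members 29 of 33 were above DMSO (53.4% of tested genes) and 17 of 33 had both libraries above both DMSO libraries (16.5%). The largest differences were 0.64 (SE 0.19) for *Mvd*, 0.60 (SE 0.35) for *Scd2*, 0.57 (SE 0.15) for *Scd1* and 0.57 (SE 0.20) for *Dhcr7*, and the smallest adjusted p was 0.514. The median over the members was 0.25, and 0.38 without PFI-3 replicate 1 and 0.16 without PFI-3 replicate 2. The 8 ESC markers were also higher with PFI-3 (8 of 8 above DMSO, median 0.40, summed to 3991 and 4972 beside 3582 and 4763), and their part in these differences was not tested.

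With BI-9564 alone 3 genes of 10222 (0.0293%) were called higher and 8 (0.0783%) lower, and 0 of 33 members were called, with a smallest adjusted p of 0.186. With the block 50 genes (0.489%) were called higher and 106 (1.04%) lower, 156 (1.53%) in all, and again 0 members. An unadjusted p under 0.05 was reached by 5 of 33 members, against 14.9% of tested genes, and by 3 without either DMSO library and 2 without BI-9564 replicate 2. The members had a median of 0.08 (0.15 without DMSO replicate 2 or BI-9564 replicate 1, and 0.04 centred on the library medians), 24 of 33 above DMSO (53.3% of tested genes), 12 of 33 without overlap above (22.9%) and 3 without overlap below (18.3%), namely *Elovl6*, *Fads2* and *Nsdhl*. *Dhcr7* differed by 0.33 (SE 0.20) and *Scap* by 0.45 (SE 0.13).

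These 3 comparisons share the DMSO libraries, so P+B was also set against each single compound. Against PFI-3 the members had a median of 0.08 and 0 of 33 were called, among 27 of 10222 genes (0.264%) higher and 107 (1.05%) lower, 134 (1.31%) in all, with 5 of 33 at an unadjusted p under 0.05 (16.6% of tested genes). The direction of this median rested on single libraries, since it was -0.09 without PFI-3 replicate 1 (13 of 33 above 0), 0.24 without PFI-3 replicate 2, 0.21 without P+B replicate 1 and 0.01 without P+B replicate 2. The 5 members became 3 without either PFI-3 library and 2 without either BI-9564 library or without P+B replicate 2. The largest were *Lpin1* at 0.63 (SE 0.26) and *Scap* at 0.53 (SE 0.13, adjusted p 0.105). Against BI-9564 the median was 0.20 and 0 of 33 were called, among 0 of 10222 genes (0%) higher and 20 (0.196%) lower, with 8 of 33 at an unadjusted p under 0.05 (7.97%), and 4 without BI-9564 replicate 1 and 2 without P+B replicate 2. The largest of those 8 were *Dhcr7* at 0.67 (SE 0.20) and *Nsdhl* at 0.62 (SE 0.26). With the block 0 members were called in either comparison, at smallest adjusted p-values of 0.0550 and 0.0615. That fit called 106 genes (1.04%) higher and 245 (2.4%) lower against PFI-3, 351 (3.43%) in all, and 8 (0.0783%) higher and 74 (0.724%) lower against BI-9564, 82 (0.802%) in all. It was therefore not shown for any member that P+B gave more than 1 compound alone. The labels do not settle the dose of PFI-3 and of BI-9564 in the P+B libraries. For the colony assay, the paper's legend lists a lower concentration of either compound in the mixture than on its own. Both contrasts may thus differ in dose as well, so they cannot isolate what adding the other compound did.

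Between the single compounds, 10 of 33 members were higher with BI-9564 than with PFI-3 (50.2% of tested genes), 8 of 33 lay below without overlap (19.9%) and 2 above (20.5%). Without PFI-3 replicate 2, 17 of 33 were higher, and the median over the members, -0.10 with all libraries, was 0.0051. That median was -0.25 without PFI-3 replicate 1 and -0.05 without BI-9564 replicate 1. *Nsdhl*, at 28 and 35 in the PFI-3 pair and 15 and 19 in the BI-9564 pair, had the largest difference, -0.85 (SE 0.26, adjusted p 0.221). *Lpin1* differed by 0.72 (SE 0.26, adjusted p 0.291) in the other direction. *Fads2* differed by -0.64 (SE 0.11), with an adjusted p of 0.0828, and of 0.0316 with the block, where it was the 1 member called, among 51 of 10222 genes (0.499%) higher and 100 (0.978%) lower, 151 (1.48%) in all. Without the block 11 genes (0.108%) and 0 members were called, with 8 of 33 members at an unadjusted p under 0.05 (14.2% of tested genes), 2 without PFI-3 replicate 2 and 4 without either BI-9564 library. *Pmvk*, *Elovl6*, *Scd1*, *Mvd*, *Fdps* and *Cyp51* were the others lower without overlap, while *Lpin1* and *Sqle* were higher. The ESC markers were lower with BI-9564 as well (0 of 8 above, median -0.64, 5 called lower with the block, summed to 3242 and 4260 beside 3991 and 4972). Their part in the difference was not tested.

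The sterol and fatty acid branches were set side by side by their medians. With P+B the median log2 difference was 0.34 over the 18 sterol genes (17 above DMSO), 0.25 over the 7 regulation genes (7 above) and 0.20 over the 8 fatty acid genes (6 above). With PFI-3 the medians were 0.28, 0.16 and 0.28, and with BI-9564 0.17, 0.08 and 0.05. Some of these medians moved with the scaling or with 1 library. Centred on the library medians, the fatty acid median was 0.11 with P+B and -0.00097 with BI-9564, and under quantile normalization it was 0.28 and 0.09. The fatty acid median with P+B was 0.13 without P+B replicate 2. With PFI-3, the sterol and fatty acid medians were both 0.17 without PFI-3 replicate 2. With BI-9564, the fatty acid median was -0.04 without DMSO replicate 1, 0.09 without DMSO replicate 2, 0.09 without BI-9564 replicate 1 and -0.06 without BI-9564 replicate 2, and the sterol median was 0.10 without DMSO replicate 1. With all libraries, sterol minus fatty acid was 0.14 with P+B, 0.0031 with PFI-3 and 0.13 with BI-9564. By library, relative to the DMSO mean, that gap was -0.02 and 0.02 in the DMSO pair, 0.01 and 0.03 in the PFI-3 pair, 0.19 and 0.08 in the BI-9564 pair and 0.13 and 0.13 in the P+B pair, with an SD between replicates of 0.04. The values of the DMSO pair mirror each other around 0 because each gene was centred on the DMSO mean, so they are no independent baseline. The gap was near 0 with PFI-3 and above both DMSO values in the 4 libraries with BI-9564. Under quantile normalization the gap with P+B was 0.06, and no test was made, because the members were chosen with results known.

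**Figure D4:**
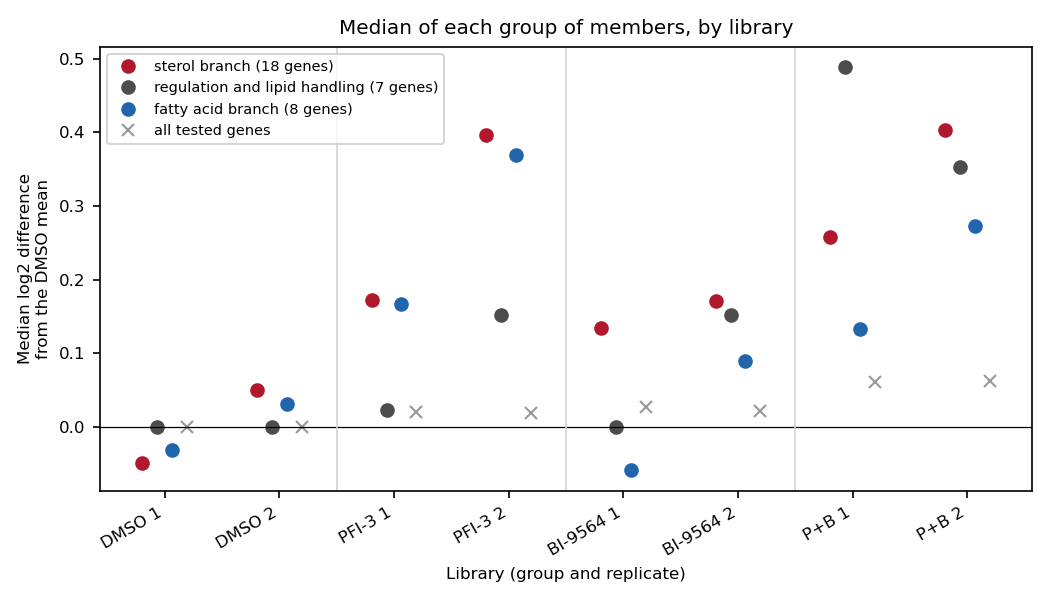
Median over each group of members of log2(value + 1) minus the DMSO mean (vertical axis), for each library (horizontal axis), with all tested genes as crosses. The sterol median is above the fatty acid median in both BI-9564 and both P+B libraries, and the 2 lie close together with PFI-3.

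By branch, 2 of 18 sterol genes (4 of 18 with the block), 1 of 7 regulation genes (1 with the block) and 0 of 8 fatty acid genes were called higher with P+B, against 1.28% of tested genes (2.93% with the block). Without overlap above DMSO were 11 of 18, 6 of 7 and 5 of 8, against 28.6% of tested genes. Compared within the same replicate number, the sterol median with P+B was 0.30 for replicate 1 and 0.43 for replicate 2, and the fatty acid median 0.16 and 0.25. Taken singly, 25 of 33 members were above the DMSO library of their own number in both replicates with P+B, against 37.7% of tested genes, 23 of 33 with PFI-3 (27.3%) and 16 of 33 with BI-9564 (32.3%).

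The libraries numbered 1 (series 1) and 2 (series 2) differed in 2 members. Fitted over all 8 libraries with group as a term, *Scd2* was higher in series 2 by 0.67 on the log2 scale (SE 0.07, adjusted p 0.00386) and *Tm7sf2* by 0.87 (SE 0.14, adjusted p 0.0195). These 2 of 33 members stood among 57 of 10222 genes (0.558%) called higher, beside 78 (0.763%) called lower, 135 (1.32%) in all. *Scd2* ranged from 95 to 130 in series 1 and from 135 to 231 in series 2, without overlap, whereas *Scd1* differed by only 0.11 (SE 0.09). *Tm7sf2* ranged from 10 to 20 in series 1 and from 19 to 30 in series 2. Of the members 13 of 33 were higher in series 2 in all 4 groups, against 11.1% of tested genes, and *Elovl6* and *Hsd17b7*, 2 of 33, were lower in all 4, against 12.8%.

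Other values moved with the series. *Jun* was 1569 to 2071 in series 1 and 2159 to 3011 in series 2, and the ESC markers summed to 4260 to 4972 and 3242 to 3991, with 8 of 8 markers lower (median -0.41). What a replicate number marks is not given by the labels, and the part of these values in the difference was not tested. The call of *Scd2* rested on single libraries: without P+B replicate 1, P+B replicate 2 or PFI-3 replicate 2 its adjusted p was 0.0585, 0.0601 and 0.05003, the last just above the threshold. *Tm7sf2* lost its call without any 1 library, at adjusted p-values from 0.0757 to 0.136.

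**Figure D5:**
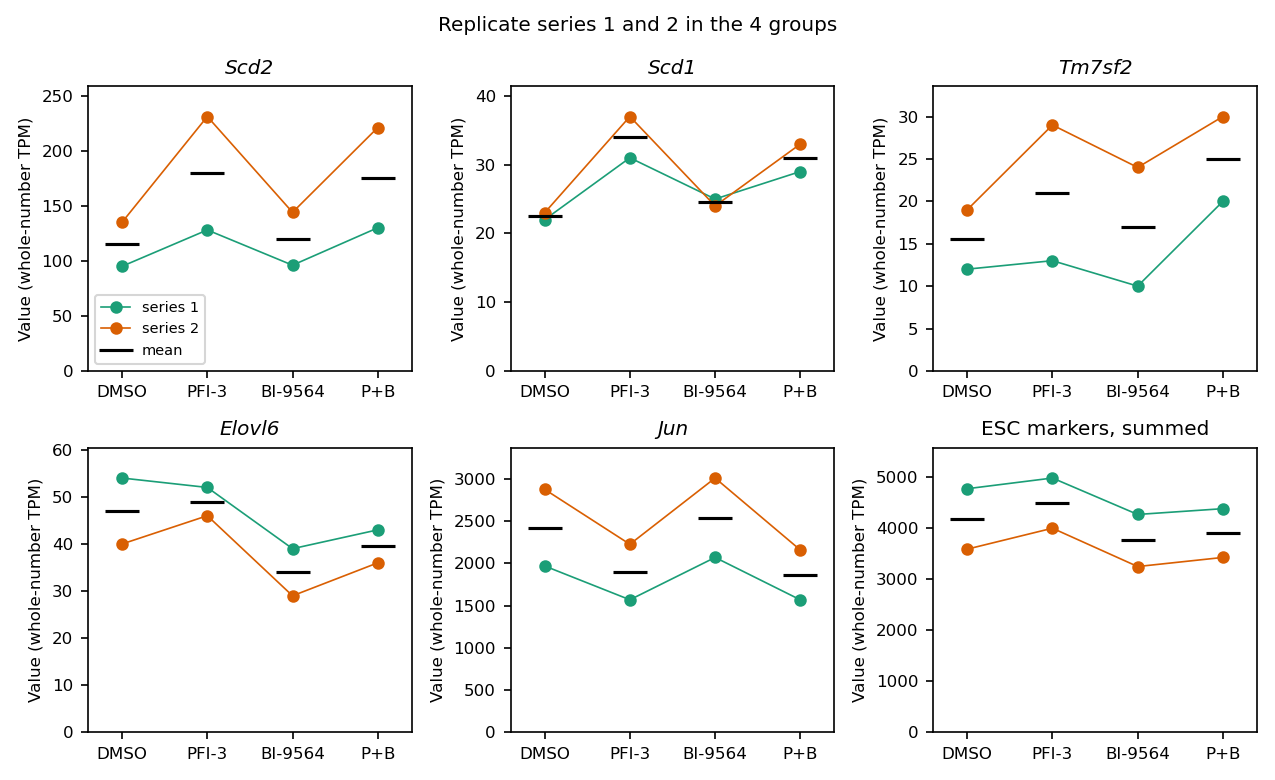
Values (whole-number TPM, vertical axis from 0) of *Scd2*, *Scd1*, *Tm7sf2*, *Elovl6*, *Jun* and the 8 ESC markers summed, in the 4 groups. Points are single libraries, lines join libraries with the same replicate number, and bars are means of 2. Series 2 lies above series 1 in all groups for *Scd2*, *Tm7sf2* and *Jun*, and below it for *Elovl6* and the ESC markers.

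Calls with P+B also depended on single libraries. The 3 members called fell to 0 without DMSO replicate 1, DMSO replicate 2 or P+B replicate 2, to 1 without P+B replicate 1, PFI-3 replicate 1 or PFI-3 replicate 2, and to 2 without either BI-9564 library. The log2 differences kept their direction: *Dhcr7* lay between 0.75 and 1.26, *Scap* between 0.73 and 0.83 and *Cyp51* between 0.52 and 0.81, with *Cyp51* uncalled in all 8 of these fits (adjusted p from 0.0725 to 0.194), *Scap* called in 4 and *Dhcr7* in 3.

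Annotation bears on a few of these values. *Mvd* lies on the other strand within *Gm20388*, a gene model that shares 0 exon bases with it and stood at 0 and 2 in the DMSO pair, 9 and 8 in the PFI-3 pair, 31 and 23 in the BI-9564 pair, and 28 and 23 in the P+B pair. *Mvd* itself was at 46 and 52 in the BI-9564 pair and at 60 and 88 in the P+B pair. The part of *Gm20388* in the values of *Mvd* was not tested. *Tm7sf2* shares 532 exon bases with *Vps51* on the same strand, and *Vps51* differed between the series by 0.11 (SE 0.07). *Vps51* was 27 and 30 in the DMSO pair, 36 and 37 in the PFI-3 pair, 51 and 56 in the BI-9564 pair, and 37 and 40 in the P+B pair. Its log2 difference was 0.42 (SE 0.12) with P+B. With BI-9564 it was 0.89 (SE 0.12), called with the block (adjusted p 0.0165). The part of *Vps51* in the values of *Tm7sf2* was not tested. *Cyp51* shares 166 exon bases with *Akap9* on the other strand, and *Akap9* had a difference of -0.29 (SE 0.24) with P+B. *Scap* shares 985 with the unverified model 5830462I19Rik, whose mean value was 0.125. *Scd2* is 95.5% identical to *Scd1* over 623 bases, 11.4% of its transcript, and *Acat2* is 97.7% identical to *Acat3* over 1477 bases, where *Acat3* stood at 0. *Acat2* is also 98.7% identical over 445 bases, 19.8% of its transcript, to *Tcp1*, whose mean was 476.4 and which differed by -0.17 (SE 0.07) with P+B. Counting may split reads between such copies. *Acaca* is 99.2% identical to the pseudogene Gm5182 over 6118 bases, 64.3% of its transcript, and no value was held for Gm5182. *Fdps* is 98.9% identical to the pseudogene Gm3571 over 1062 bases, which stood at 0. *Fdps* also shares 1124 exon bases with the model Gm43738 on the same strand, whose mean was 0. *Fdft1* shares a stretch of 774 bases with *Ctsb*, whose mean was 72.5. Whether counting used strand is not given in the sources used here.

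Genes of neighbouring pathways were compared between P+B and DMSO as well. Beside them, 1.28% of all tested genes were called higher and 2.72% lower, and with the block 2.93% and 4.1%. Lists this small cannot tell their share of calls from these. Of 13 tested genes of sterol uptake, transport and storage 1 was called higher and 0 lower, with a median of 0.22. That gene was *Scarb1*, the HDL receptor, at 33 and 34 in the DMSO pair, 36 and 41 in the PFI-3 pair, 41 and 50 in the BI-9564 pair and 54 and 65 in the P+B pair, which rose by 0.80 (SE 0.15, adjusted p 0.0241). Of 21 other genes of fatty acid synthesis, elongation and glycerolipids 1 was called lower, *Agpat2*, an acyltransferase of phosphatidate synthesis, which was 74 and 56 in the DMSO pair, 62 and 57 in the PFI-3 pair, 50 and 44 in the BI-9564 pair and 42 and 35 in the P+B pair and fell by 0.73 on the log2 scale (SE 0.16, adjusted p 0.0433). The median of these 21 was 0.11. Of 19 fatty acid oxidation genes 0 were called by limma without the block (7 had an unadjusted p under 0.05), while *Cpt1a*, the carnitine transferase of mitochondrial import, and *Etfdh* were called higher with the block (2 of 19, median 0.25). *Cpt1a* was 20 and 19 in the DMSO pair, 22 and 27 in the PFI-3 pair, 24 and 20 in the BI-9564 pair and 29 and 33 in the P+B pair. *Etfdh* was 26 and 23, 30 and 32, 42 and 31, and 40 and 35 in the same order.

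Of the 10 tested genes of SREBP processing and turnover, the 3 of the oxysterol response and the 11 of the isoprenoid branches, 0 were called with P+B by limma with or without the block, with 3, 1 and 1 at an unadjusted p under 0.05. Their median log2 differences were -0.0023, 0.21 and 0.11. With PFI-3 or BI-9564 alone 0 genes of all 6 lists were called, beside 0% and 0.108% of all tested genes. For comparison, 22.6% of tested genes had an unadjusted p under 0.05 with P+B, and 13 of the 33 members did (8 without DMSO replicate 1 and 6 without P+B replicate 2).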

How the data were processed

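RNA was measured by RNA-seq in 8 libraries, 2 per group. The submitters' processing notes name bcl2fastq, Bowtie2 2.2.5, RSEM 1.3.0 and mm10, and the annotation is not given in the sources used here. The authors deposited 1 table in which each value is a score, namely TPM made whole numbers. Depth is unknown, so no count model was used.

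Genes whose mean over the libraries was 5 or more (10222 of 50600 rows) entered limma 3.58.1 (R 4.3.3, eBayes with a trend) after adding 1 and taking log2, with all 4 groups in the same fit. Benjamini-Hochberg adjustment ran over all tested genes within each of 7 comparisons. The fit was tested on simulated data.

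The members, lists and alternatives were chosen with earlier results of these data known. Members called in any comparison, the 3 highest and 3 lowest with P+B, and paralogs of these are given in every library, as are up to 3 called genes of each other list. Some further members are given in all or some of the groups.

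Every group carries replicate numbers 1 and 2. Across tested genes the differences between replicates correlated in all 6 pairs of groups (lowest r 0.143, highest 0.236). The main fit used group means only and did not pair the libraries. On the ground of these correlations a second fit used the replicate number as a block. Positions are from GENCODE M21 (GRCm38), promoters from RefSeq (GRCm38.p6), and near-identical copies (at least 95% over 200 bases) from BLAST+ 2.17.0.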

Additional observations from a re-analysis of the deposited data

How the results depend on the processing

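Without counts or depth, the precision of single values is unknown, and 2 libraries per group limit every call. Members called with P+B against DMSO numbered 3 among 409 genes called, and 5 among 718 with the replicate block, 1 among 385 in limma without a trend, 1 among 201 with no filter on low values, 0 among 0 with only the 4 libraries compared, 0 among 124 at an adjusted p threshold of 0.01, and between 0 and 2 when each library was left out (among 68 to 268). The replicate block added *Mvd* and *Mvk* there and *Fads2* between BI-9564 and PFI-3 (1 member against 0), and changed no other member's call. The 2 members called between the series (among 135 genes) became 1 among 82 at a mean of at least 20, 1 among 41 with no filter, 1 among 62 at the 0.01 threshold, 0 among 65 without a trend, and 0 to 1 when each library was left out (among 32 to 52). Sterol minus fatty acid with P+B against DMSO was 0.058 under quantile normalization, and 0.11 to 0.19 when each library was left out. The same ranges were 0.082 to 0.19 for BI-9564 against DMSO, 0.11 to 0.23 for P+B against PFI-3, -0.076 to 0.11 for P+B against BI-9564 and 0.080 to 0.20 for BI-9564 against PFI-3. With P+B, *Hsd17b7* lay between -0.67 and 0.18 and *Acaca* between -0.38 and 0.055, turning positive without P+B replicate 2 and without P+B replicate 1, respectively. In such fits the lone library of a group is assumed to vary like the other groups. The cause of these shifts was not tested. Of the gene values under alternatives, 282 kept direction and call, 45 lost the call, 3 gained it and 2 changed direction. The 282 include genes that were uncalled in the main fit and stayed uncalled. Only results called in the main fit could lose a call. With P+B, *Scap* kept its call in 14 of 20 alternatives, *Dhcr7* in 11 of 20 and *Cyp51* in 5 of 20. Between the series, *Scd2* kept its call in 14 of 18 and *Tm7sf2* in 6 of 17. Of the counts and medians 221 stayed and 34 moved.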
